A study of Mus musculus with 2 samples.

Results

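The NR4A family comprises the orphan nuclear receptors Nr4a1 (Nur77), Nr4a2 (Nurr1) and Nr4a3 (Nor1), 3 of the 32589 genes listed for this mouse series. They were matched by symbol and followed through the gated cell classes of tumor-bearing livers. The 3 genes were chosen for their ratio between the libraries, so that ratio is given throughout as a description. Cholangiocarcinomas (CCAs, tumors of the bile ducts) had been induced by hydrodynamic tail vein injection of plasmids for NICD, the active part of the Notch receptor, and myristoylated AKT. Every mouse in the groups compared was shYT: doxycycline-inducible shRNAs against Yap1 and Wwtr1 (TAZ) were carried as alleles knocked in downstream of Col1a1 and driven in the whole body through CAG-rtTA3, so immune cells carried them as well. Doxycycline chow began on day 25 and livers were taken on day 33. The shYT_PBS group received PBS, and the shYT_antiPD1 group received the anti–PD-1 antibody RMP1-14 on days 26, 29 and 32. 1 single-cell library stood for each group. A caption of the study gives more than 1 replicate per group, so a library may pool animals, but cells carried no hashtags and the labels tie no cell to an animal. The labels give neither sex nor which of the study's shRNA lines was used.

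NR4A receptors bind DNA without a known natural ligand, and their activity is set mainly by how much protein a cell makes. They are immediate early genes: calcium, cAMP and growth factor signals start their transcription within minutes. In T cells, signaling through the antigen receptor and NFAT induces them, and they are known for shaping the dysfunctional state of tumor-infiltrating CD8 T cells. Nr4a1 is also needed by patrolling monocytes, and members of the family restrain inflammatory genes in macrophages.

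UMIs (unique molecular identifiers) each stand for 1 captured transcript. The study's cell limits, 500 to 5000 genes detected and no more than 10% of UMIs mitochondrial, left the PBS library with 15531 cells and the anti–PD-1 library with 16360. Their median depths were 3159 and 2990 UMIs. Cells were assigned to classes by marker genes, which left 1592 and 2125 unassigned. In 151 of 167 checks, a marker was highest in the class it defines. The libraries shared 219 barcodes, 145 of them kept in both and 18 of those in the same class. Over all kept cells Yap1 was at 3.38 CPM (counts per 1000000 UMIs) in the PBS and 1.70 in the anti–PD-1 library, and Wwtr1 at 10.4 and 2.56. In tumor and biliary epithelial cells Yap1 was at 9.42 and 12.3 CPM and in CAFs, the cancer-associated fibroblasts, at 22.4 and 19.9 CPM, with overlapping intervals in both. Wwtr1 was at 12.2 and 7.42 CPM in tumor and biliary epithelial cells, and at 103 CPM (91.0 to 117) and 65.8 CPM (50.9 to 83.7) in CAFs, where the intervals were apart. These classes held fewer cells in the anti–PD-1 library. No library without the shRNA was analysed here, so these levels do not check the knockdown. Xist UMIs without a Y-linked UMI marked 43.0% of the PBS cells but only 4 anti–PD-1 cells. Y-linked UMIs without Xist marked 9.54% and 48.1%. The PBS library thus held cells of both kinds. Cells with pancreatic acinar markers numbered 58 in the anti–PD-1 library and 0 in the PBS library.

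The 3 genes lie on different chromosomes (GRCm38, GENCODE vM21) and overlap no other annotated gene. Nr4a1 (ENSMUSG00000023034) spans chr15:101254269-101274795 on the plus strand, Nr4a2 (ENSMUSG00000026826) chr2:57106830-57124003 on the minus strand and Nr4a3 (ENSMUSG00000028341) chr4:48045153-48086447 on the plus strand. The stretch before each RefSeq start is printed because the sequences share a feature that the rule did not use. Any link between that feature and the levels was not tested. Each 250-base window before the start held 4 copies of TGACG or its reverse complement CGTCA, the core of the cAMP response element (CRE) that CREB and ATF factors bind, and capitals mark it.
Nr4a1, chr15:101266596-101266845, plus strand: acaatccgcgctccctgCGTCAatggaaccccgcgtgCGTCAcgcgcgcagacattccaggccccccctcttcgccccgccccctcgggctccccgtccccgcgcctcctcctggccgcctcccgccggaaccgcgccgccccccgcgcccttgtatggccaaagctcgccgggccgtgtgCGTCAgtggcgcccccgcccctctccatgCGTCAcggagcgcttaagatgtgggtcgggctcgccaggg
Nr4a2, chr2:57124004-57124253, minus strand: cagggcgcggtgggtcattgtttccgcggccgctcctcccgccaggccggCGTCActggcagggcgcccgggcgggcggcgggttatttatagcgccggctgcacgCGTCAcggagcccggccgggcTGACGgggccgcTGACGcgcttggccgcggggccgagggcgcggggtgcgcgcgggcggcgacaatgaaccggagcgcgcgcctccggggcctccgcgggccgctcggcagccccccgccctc
Nr4a3, chr4:48045055-48045152, plus strand: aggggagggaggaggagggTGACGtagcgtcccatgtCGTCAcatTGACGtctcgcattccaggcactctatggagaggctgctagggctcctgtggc
Of 32851 RefSeq windows of that length (GRCm38.p6), 17.8% held at least 1 copy of this core, 3.90% at least 2 and 0.137% at least 4. Those windows were not matched for base content. The full windows of Nr4a1, Nr4a2 and Nr4a3 were rich in G and C, at 74.4%, 80% and 63.6%. The copies began at −233, −213, −69 and −40 from the start of Nr4a1, at −200, −144, −123 and −111 for Nr4a2, and at −231, −213, −205 and −147 for Nr4a3. The Nr4a3 sequence shown is the 98 bases before the first annotated exon and holds 3 of its 4 copies. The Nr4a1 window lies in an intron of 1 longer transcript. None of the 3 windows held the full palindrome TGACGTCA (1.55% of windows), the AP-1 motif TGANTCA (6.75%), the NR4A response element AAAGGTCA (1.34%) or a CArG box, the motif of serum response factor (1.47%), on either strand. Among 11 other immediate early genes with a window, 6 held at least 1 copy of the core and 3 at least 2 (Fos 2, Btg2 2 and Dusp1 3), and 0 held 4.

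All levels below are UMIs summed over the cells of a class and divided by all UMIs of that class, in CPM. They carry 95% Poisson intervals that cover counting error only. The log2 ratio compares CPM plus 5 in the anti–PD-1 library with CPM plus 5 in the PBS library, and “at least 2-fold higher” always refers to the anti–PD-1 side, at a log2 ratio of 1 or more. With 1 library per group there is no replicate error and no test, so each difference is between these libraries. The median log2 ratio over all genes tested was between −0.27 and 0.00 in the 15 classes with at least 50 cells in each library.

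In those 15 classes, 42 of the 45 combinations of class and member were at least 2-fold higher, and 45 of 45 log2 ratios lay above 0. Of all genes tested, between 1.55% and 8.15% were at least 2-fold higher, depending on the class. Some of these combinations did not exceed the level in plasma cells, the reference for free RNA. With the UMIs per cell of plasma cells taken off, 29 combinations had a value and 26 were at least 2-fold higher. A value was formed only where both libraries lay above plasma cells, so combinations that fell below them in either library are not counted. The median over classes was 2.56 for Nr4a1 (range 0.87 to 4.81), 1.62 for Nr4a2 (0.91 to 4.30) and 1.99 for Nr4a3 (1.13 to 4.30). Plasma cells account for the 3 combinations that were not counted: Nr4a1 (0.87), Nr4a2 (0.91) and Nr4a3, whose mean level there did not pass 5 CPM. The gene nearest above the limit was Nr4a2 in endothelial cells, at 1.01.

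**Figure D1:**
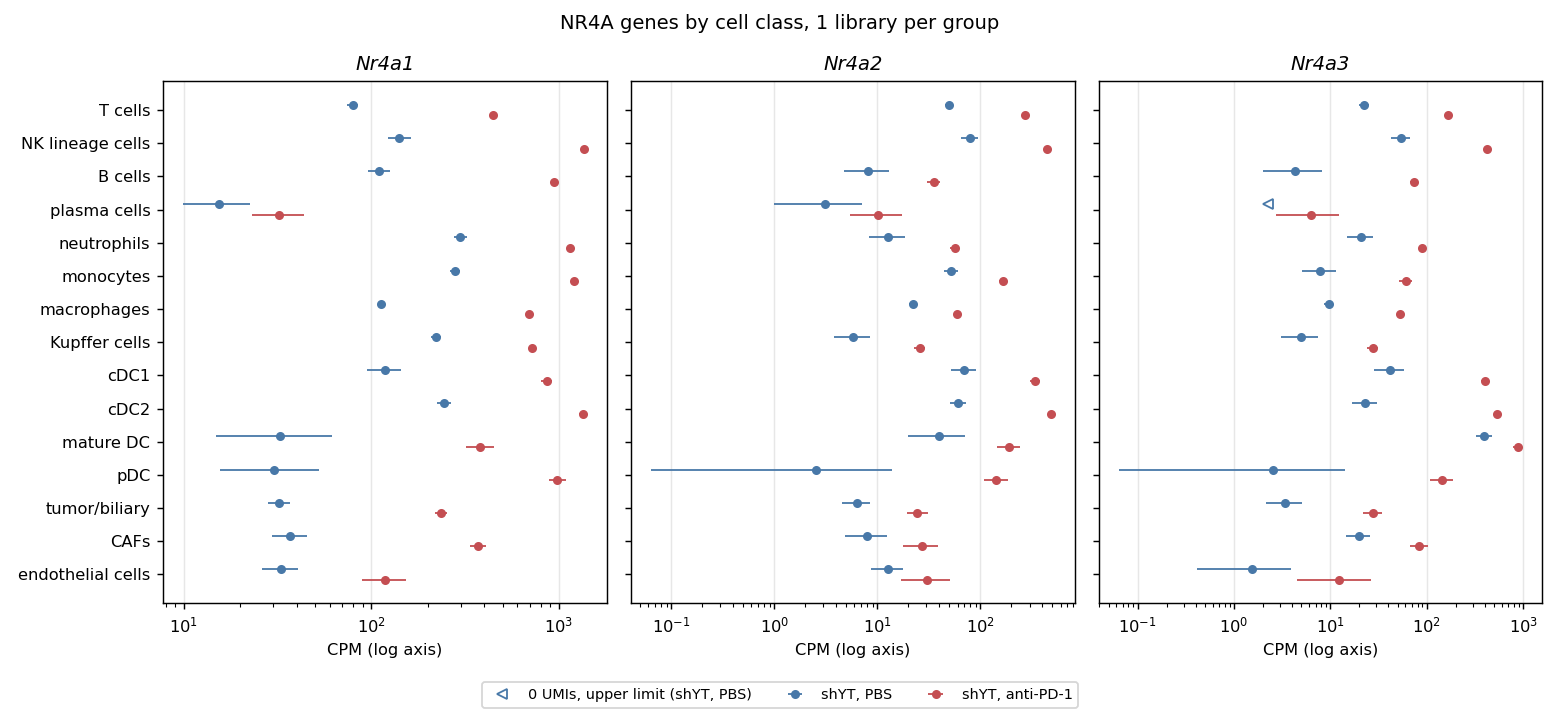
Level of each NR4A gene (CPM, log axis) in 15 cell classes, blue for the shYT_PBS and red for the shYT_antiPD1 library; bars are 95% Poisson intervals and the open triangle is the upper limit for 0 UMIs. The red point lies to the right of the blue point in each class shown, with the smallest steps for Nr4a1 in plasma cells and Nr4a3 in mature DCs.

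In CD8-gated T cells (947 and 1386 cells), defined by a Cd8a or Cd8b1 UMI and no Cd4 UMI, Nr4a1 was at 61.2 CPM (53.1 to 70.2) in the PBS library and 397 CPM (382 to 412) in the anti–PD-1 library, which gives a log2 ratio of 2.60 (2.41 to 2.80). Nr4a2 was at 83.1 CPM (73.6 to 93.5) and 355 CPM (341 to 369), at a log2 ratio of 2.03 (1.86 to 2.20). Nr4a3 was at 13.8 CPM (10.1 to 18.4) and 144 CPM (135 to 153), at a log2 ratio of 2.99 (2.66 to 3.31). In Y-marked cells alone the log2 ratios were 1.96 for Nr4a1 (28 PBS UMIs), 4.32 for Nr4a2 (4 PBS UMIs) and 3.24 for Nr4a3 (3 PBS UMIs). With plasma-cell UMIs taken off they were 5.61, 2.10 and 2.76. The 5.61 for Nr4a1 is set largely by the added 5 CPM: its PBS level, 0.215 UMIs per cell, was about that of plasma cells, 0.212. The intervals of the libraries were far apart for each gene, and Nr4a3 ranked 1, Nr4a1 2 and Nr4a2 17 by log2 ratio among the 9911 genes tested in these cells, of which 1.77% were at least 2-fold higher. Over all T cells (3286 and 3525 cells), where 1.55% of genes were, the log2 ratios were 2.41 for Nr4a1, 2.32 for Nr4a2 and 2.63 for Nr4a3.

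Within CD8-gated T cells the members differed by state. Cells without a UMI of Pdcd1, which encodes PD-1 (773 and 932 cells), had Nr4a2 at 54.3 CPM (45.8 to 63.9) in the PBS library and at 237 CPM (222 to 252) after anti–PD-1. Cells with a Pdcd1 UMI (174 and 454 cells) had Nr4a2 at 200.2 CPM (168 to 237) already in the PBS library and at 511 CPM (486 to 537) in the anti–PD-1 library. Nr4a2 was thus higher in the Pdcd1-bearing cells of both libraries, and its log2 ratio there, 1.33 (1.08 to 1.59), was below that in Pdcd1-negative cells, 2.03 (1.79 to 2.27). Nr4a3 did not follow that order: it was at 14.2 CPM in Pdcd1-negative and 12.1 CPM in Pdcd1-bearing cells of the PBS library and at 145 and 143 CPM after anti–PD-1, and the intervals overlapped within each library. Nr4a1 went from 55.4 to 373 CPM in Pdcd1-negative and from 84.9 to 428 CPM in Pdcd1-bearing cells. In the PBS library the UMIs per cell of Nr4a1 in both subsets and over all CD8-gated T cells (0.215), and of Nr4a3 in Pdcd1-bearing cells (8 UMIs), did not clear those of plasma cells, the reference for free RNA, and are not read as expression. The share of all genes at least 2-fold higher was 1.92% in the Pdcd1-negative and 2.92% in the Pdcd1-bearing cells. Detection of Pdcd1 depends on depth, and the median depth of the Pdcd1-bearing cells was 3007 UMIs in the PBS and 5103 in the anti–PD-1 library. Pdcd1-bearing cells were 174 of 947 CD8-gated T cells in the PBS and 454 of 1386 in the anti–PD-1 library. The Nr4a2 ratio over all CD8-gated T cells thus also carries this difference in make-up.

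Other T cells showed the same direction. CD4 T cells without Foxp3 (696 and 803 cells) had log2 ratios of 2.35 for Nr4a1, 1.89 for Nr4a2 and 2.45 for Nr4a3, with 2.04% of genes at least 2-fold higher. Regulatory T cells, marked by Foxp3 (242 and 237 cells), had 2.16, 2.18 and 2.49 in the same order of genes (background 2.95%). In regulatory T cells Nr4a2 was at 26.3 and 137 CPM, against 55.3 and 218 CPM in CD4 T cells without Foxp3. The PBS level of Nr4a2 in regulatory T cells, that of Nr4a1 in CD4 T cells without Foxp3 and those of both genes in gamma-delta T cells did not clear plasma cells and are not read as expression. Gamma-delta T cells (81 and 77 cells) had the highest anti–PD-1 levels of Nr4a1 (665 CPM) and Nr4a3 (287 CPM) among the T cell subsets, in a subset where 8.55% of genes were at least 2-fold higher at this low cell number.

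**Figure D2:**
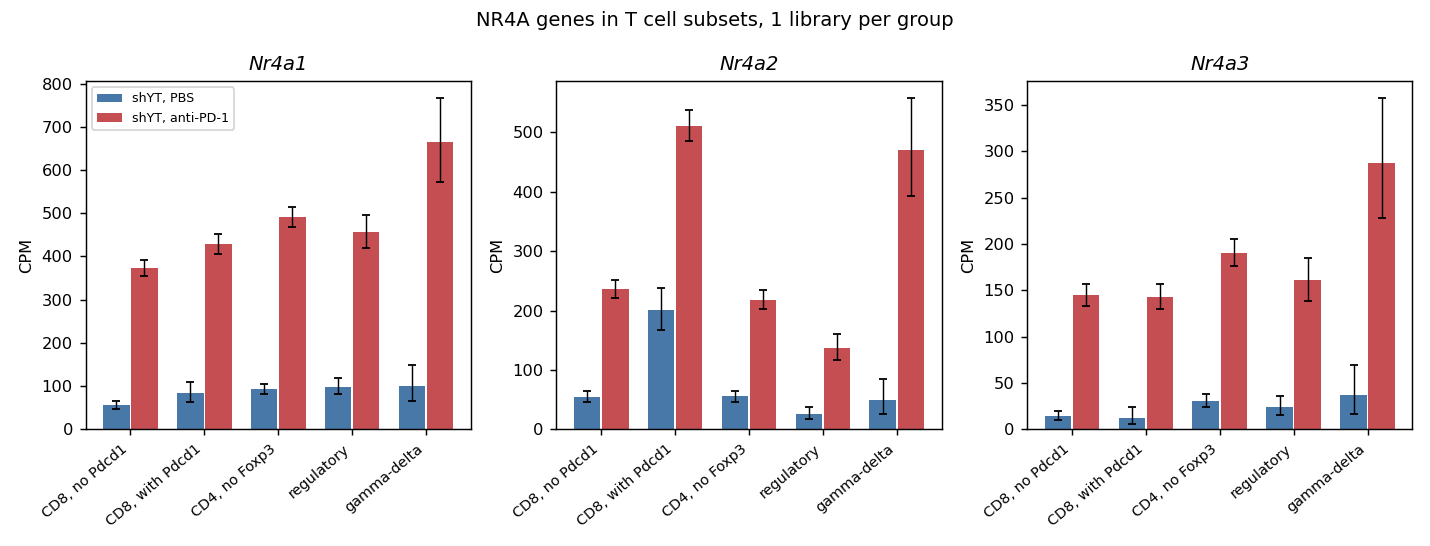
Level of each NR4A gene (CPM) in 5 T cell subsets, blue for the shYT_PBS and red for the shYT_antiPD1 library, with 95% Poisson intervals. Nr4a2 is highest in Pdcd1-bearing CD8 cells in both libraries, whereas Nr4a3 is nearly level between the CD8 subsets of each library.

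NK lineage cells (515 and 726 cells), which include conventional NK cells and related innate lymphocytes, had the highest Nr4a1 level of the 15 classes in the anti–PD-1 library together with cDC2. Nr4a1 was at 141 CPM (122 to 162) in the PBS and 1362 CPM (1319 to 1406) in the anti–PD-1 library, and its log2 ratio of 3.23 (3.03 to 3.43) ranked 1 of 10072 genes. Nr4a2 was at 78.7 and 443 CPM and Nr4a3 at 53.4 and 424 CPM, with log2 ratios of 2.42 and 2.88. All 3 members were therefore well represented in these cells, where 2.32% of genes were at least 2-fold higher.

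B cells (972 and 1630 cells), in which Nr4a1 is a known readout of antigen receptor signaling, had Nr4a1 at 109.7 CPM (95.9 to 125) and 940.0 CPM (913 to 967), at a log2 ratio of 3.04. Nr4a3 was at 4.33 CPM (9 UMIs) and 73.8 CPM (369 UMIs), a log2 ratio of 3.08 that ranked 1 of 10117 genes. Its 0.226 UMIs per cell (0.204 to 0.251) in the anti–PD-1 library did not clear the interval of plasma cells, 0.110 (0.0473 to 0.216), so this level is not read as expression. Nr4a2 stayed low at 8.18 and 35.4 CPM. In the PBS library all 3 members in B cells, with Nr4a1 at 0.235 UMIs per cell, did not clear plasma cells. Those levels are not read as expression either. The background in B cells was 1.58%. Plasma cells, their antibody-secreting descendants (118 and 73 cells), had the lowest Nr4a1 level of the 15 classes in each library, at 15.4 CPM (9.94 to 22.7) and 32.2 CPM (23.1 to 43.6), and Nr4a3 was at 0 and 8 UMIs. There 2.80% of genes were at least 2-fold higher.

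Myeloid cells carried mostly Nr4a1. In neutrophils (1195 and 2922 cells) Nr4a1 was at 298 CPM (274 to 322) and 1149 CPM (1125 to 1174), the highest PBS level of the 15 classes, with monocytes next at 279 CPM (261 to 297) and an overlapping interval. The neutrophil log2 ratios were 1.93 for Nr4a1, 1.78 for Nr4a2 and 1.88 for Nr4a3 (background 2.69%). In monocytes (495 and 384 cells) they were 2.09, 1.60 and 2.36 (background 3.59%). In Y-marked cells alone Nr4a2 was below 2-fold in both classes, at 0.34 and 0.80. In macrophages (3745 and 2314 cells), the largest class of the PBS library, Nr4a1 was at 113 CPM (109.5 to 117) and 690.4 CPM (679 to 702), at a log2 ratio of 2.56 (2.51 to 2.61). Macrophage Nr4a2, at 22.1 and 59.9 CPM, and Nr4a3, at 9.60 and 53.2 CPM, had log2 ratios of 1.26 and 1.99 (background 3.31%), and with plasma-cell UMIs taken off that of Nr4a2 was 0.99, below 2-fold. Kupffer cells, the resident liver macrophages (499 and 1040 cells), had more Nr4a1 than the other macrophages in the PBS library (220.3 against 113 CPM) but about as much in the anti–PD-1 library (714 against 690.4 CPM), and log2 ratios of 1.68, 1.51 and 1.71 (background 2.02%). With plasma-cell UMIs taken off, Kupffer cell Nr4a2 (0.80) and neutrophil Nr4a3 (0.95) were below 2-fold as well.

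Dendritic cells (DCs) differed in which member led. In cDC2 (295 and 155 cells), the DCs that mainly present antigen to CD4 T cells, Nr4a3 was at 22.8 CPM (16.8 to 30.2) and 532 CPM (494 to 573). This log2 ratio of 4.27 (3.92 to 4.64) ranked 1 of 9659 genes, and Nr4a2 (61.2 and 486 CPM) and Nr4a1 (244 and 1335 CPM) were at 2.89 and 2.43 (background 2.98%). In cDC1 (103 and 86 cells), specialised in cross-presentation to CD8 T cells, the log2 ratios were 2.82 for Nr4a1, 2.21 for Nr4a2 and 3.13 for Nr4a3 (background 4.75%). That of Nr4a3 was 2.01 after thinning to 1000 UMIs and 4.12 with a stricter gate. Mature DCs (63 and 50 cells), the migratory state marked by Ccl22 and Fscn1, had the highest Nr4a3 of the 15 classes in both libraries, at 396 CPM (325 to 477) and 872 CPM (776 to 978). Their Nr4a3 log2 ratio of 1.13 (0.99 after thinning to 1000 UMIs) was the lowest of that gene, while their Nr4a1 was at 32.4 and 380.2 CPM (log2 ratio 3.36) and their Nr4a2 at 2.12 (background 8.15%). In plasmacytoid DCs (pDC; 78 and 60 cells), producers of type I interferon, Nr4a1 was at 30.1 CPM (12 UMIs) and 980.3 CPM (383 UMIs), at a log2 ratio of 4.81 (4.08 to 5.596). Nr4a2 and Nr4a3 each had 1 UMI in the PBS and 56 in the anti–PD-1 library, for a log2 ratio of 4.30 (2.89 to 4.90), in a class where 7.80% of genes were at least 2-fold higher. The PBS levels of all 3 members in pDC did not clear those of plasma cells, the reference for free RNA, and are not read as expression. The log2 ratio of Nr4a1 was 3.53 in pDC with no Hspa1a or Hspa1b UMI, and that of Nr4a3 was 2.31 after thinning to 1000 UMIs.

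Outside the blood lineages, tumor and biliary epithelial cells (1520 and 908 cells) had Nr4a1 at 32.2 CPM (28.1 to 36.8) and 235 CPM (218 to 253), and log2 ratios of 2.69 for Nr4a1, 1.38 for Nr4a2 and 1.95 for Nr4a3 (background 3.32%). Cancer-associated fibroblasts (CAFs; 454 and 180 cells), which lay down tumor matrix, had Nr4a1 at 36.8 and 369.9 CPM, a log2 ratio of 3.17 (2.86 to 3.47), and Nr4a2 and Nr4a3 at 1.30 and 1.85 (background 3.42%). Endothelial cells (537 and 98 cells) had the lowest Nr4a3 of the classes other than plasma cells in the anti–PD-1 library, at 12.2 CPM (6 UMIs), and log2 ratios of 1.70, 1.01 and 1.40 (background 4.15%). Endothelial Nr4a2 and Nr4a3 were each below 2-fold under 5 alternative settings, for example Nr4a2 at 0.32 after thinning, and CAF Nr4a2 (0.88) and Nr4a3 (0.67) were in cells with 2000 to 4000 UMIs. All these epithelial and stromal levels of Nr4a1 lay below those of the T cells in the anti–PD-1 library.

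**Figure D3:**
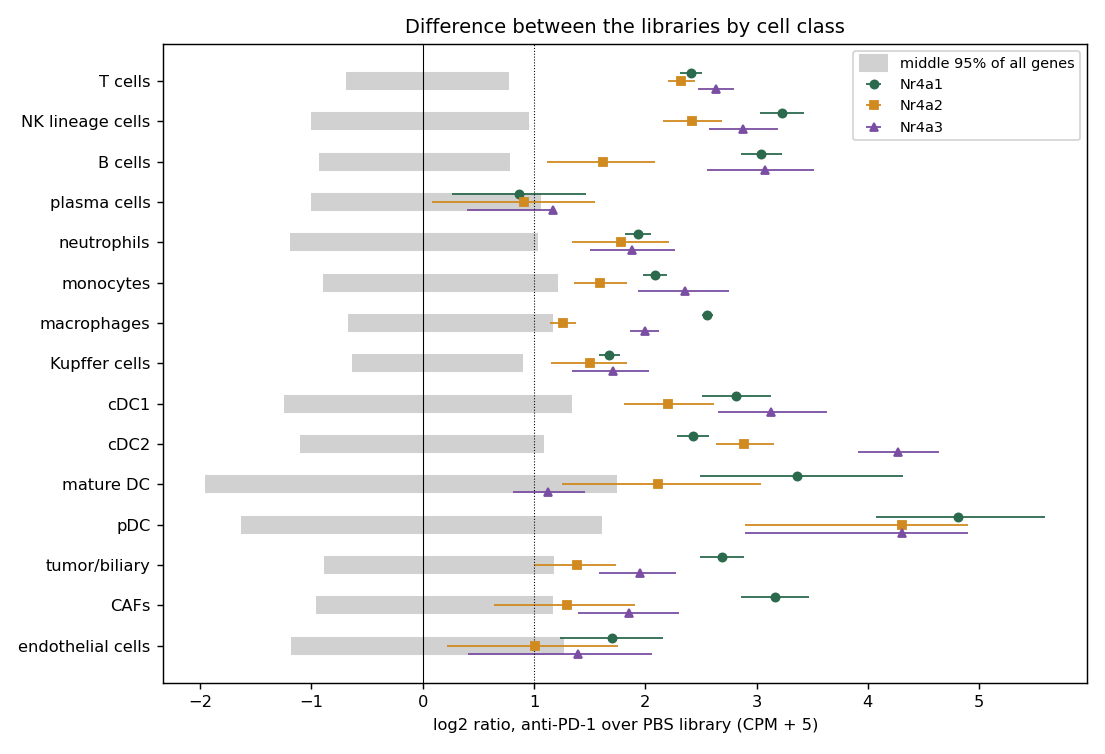
Log2 ratio of the anti–PD-1 over the PBS library (CPM + 5) for the NR4A genes in 15 classes, with 95% counting intervals; gray bars span the middle 95% of all genes tested in the class, and the dotted line marks 2-fold. The members lie beyond the gray bars in most classes; plasma cells, endothelial Nr4a2 and mature DC Nr4a3 are inside them or at their edge.

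Free RNA can put NR4A UMIs into droplets of cells that do not express the genes. Plasma cells, the deepest class at median 12751 and 16380 UMIs, were taken as the reference for it, although they may express some. They had 0.212 Nr4a1 UMIs per cell in the PBS and 0.562 on the anti–PD-1 side. In the latter library, T cells had 1.97, NK lineage cells 5.29, B cells 2.88, macrophages 5.86 and cDC2 11.46 Nr4a1 UMIs per cell, and 12 of 14 other classes had an interval above that of plasma cells. The exceptions were tumor and biliary epithelial cells (0.803) and endothelial cells (0.592). For Nr4a2 8 of 14 and for Nr4a3 9 of 14 classes were above plasma cells; B cells, neutrophils, Kupffer cells, tumor and biliary epithelial cells and endothelial cells were not for either gene, nor were CAFs for Nr4a2. Those levels are not read as expression. In the PBS library the counts were 7, 6 and 8 of 14 for Nr4a1, Nr4a2 and Nr4a3. The PBS level of Nr4a1 in T cells, 0.263 UMIs per cell (0.246 to 0.281), did not clear that of plasma cells. The plasma-cell interval was wide there, at 0.137 to 0.313 (25 UMIs). Tumor and biliary epithelial cells of that library were lower than plasma cells, at 0.144 (0.126 to 0.164), and the T cell interval lay above theirs. Not clearing plasma cells thus does not show that a gene was not expressed.

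The make-up of the family differed between the classes of each library. In the anti–PD-1 library Nr4a1 made up 93.1% of NR4A UMIs in Kupffer cells, 89.6% in B cells and 88.8% in neutrophils, but 50.6% in T cells and 26.4% in mature DCs. Nr4a3 made up 60.5% in mature DCs and 3.57% in Kupffer cells, and Nr4a2 made up 47.2% in Pdcd1-bearing CD8 cells and 3.37% in B cells. The low shares of Nr4a3 in Kupffer cells and Nr4a2 in B cells are among the levels that did not exceed plasma cells. These shares were close in both libraries for several classes, for example 52.5% and 50.6% Nr4a1 in T cells and 89.8% and 89.6% in B cells, although in the PBS library Nr4a1 in T cells and all 3 members in B cells did not exceed plasma cells. They moved in mature DCs, where Nr4a3 was 84.6% in the PBS and 60.5% in the anti–PD-1 library and Nr4a1 6.92% and 26.4%, and in CAFs, where Nr4a1 was 57.1% and 77.0%. The PBS level of Nr4a1 in both classes (9 and 92 UMIs) did not exceed plasma cells either. In Pdcd1-bearing CD8 cells Nr4a2 was 67.3% in the PBS and 47.2% in the anti–PD-1 library. They also moved in cDC2, where Nr4a3 was 6.94% of NR4A UMIs in the PBS and 22.6% in the anti–PD-1 library, and in CD8-gated T cells, where Nr4a2 was 52.6% and 39.6%.

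**Figure D4:**
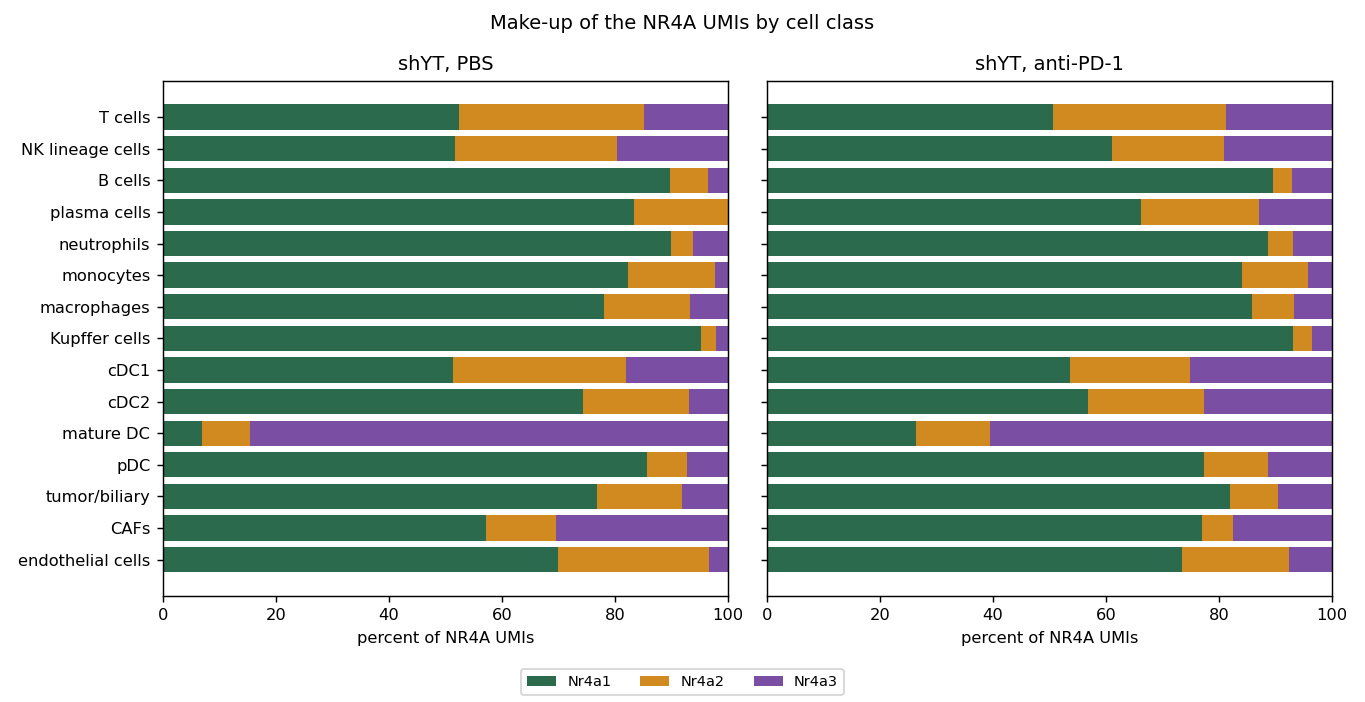
Percent of all NR4A UMIs that came from each member in 15 classes, shYT_PBS on the left and shYT_antiPD1 on the right. Nr4a1 fills most of each bar in B cells, neutrophils and Kupffer cells, and Nr4a3 fills most in mature DCs.

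Because depth differed between the libraries within classes, shares of cells were compared after thinning each cell to 1000 UMIs. Of T cells, 11.3% in the PBS and 47.7% in the anti–PD-1 library then had a UMI of any member (25.4% and 77.8% before thinning). The shares were 18.9% and 74.2% in NK lineage cells, 20.8% and 60.2% in neutrophils, 11.6% and 47.1% in macrophages and 22.6% and 83.8% in cDC2. Plasma cells were at 0.870% and 6.85% at the same depth. As the deepest class they lose most UMIs to thinning, so these shares do not serve as the reference for free RNA. UMIs of at least 2 members in 1 thinned cell were found in 2.59% and 34.3% of NK lineage cells and in 3.08% and 41.6% of cDC2, against 0.576% and 6.30% of macrophages. In thinned T cells of the anti–PD-1 library, 20.7% (18.2 to 23.2) of cells with an Nr4a1 UMI also had Nr4a2, against 15.7% (14.2 to 17.2) of cells without one. Nr4a3 was likewise found in 18.9% and 12.1% of them. The Nr4a2 excess was not seen within the CD8 subsets, at 16.9% and 17.4% without a Pdcd1 UMI and 36.5% and 36.8% with one, nor in regulatory T cells, at 6.17% and 9.62%. The shares were 25.7% and 21.4% over all CD8-gated T cells, 16.3% and 14.3% in CD4 T cells without Foxp3 and 33.3% and 19.1% in gamma-delta T cells, and the intervals overlapped in each of these subsets. For Nr4a3 the shares were 19.5% and 12.01% in Pdcd1-negative but 10.8% and 16.6% in Pdcd1-bearing CD8 cells, with overlapping intervals in both. They were 21.9% (16.8 to 27.8) and 12.3% (9.73 to 15.3) in CD4 T cells without Foxp3, with intervals apart, and 18.5% and 9.62% in regulatory and 16.7% and 21.3% in gamma-delta T cells, with overlapping intervals. All are cells of 1 library and therefore not independent replicates. Before thinning, the 10% of T cells with the most UMIs of a member held 47.3% of Nr4a1, 62.7% of Nr4a2 and 55.4% of Nr4a3 UMIs in the anti–PD-1 library. Depth differs between these cells.

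Genes that act upstream of the family mostly differed by less than 2-fold in CD8-gated T cells and macrophages. Of 20 signal input genes (calcineurin, NFAT, MEF2, CREB, CRTC and PKA genes), 1 was at least 2-fold higher in CD8-gated T cells, against 1.77% of all genes, and their median log2 ratio was −0.05. That gene was Crem, a cAMP-responsive repressor that is itself induced through CREs, at 38.1 CPM in the PBS and 159 CPM in the anti–PD-1 library (log2 ratio 1.93), and next came the calcium-responsive factor Mef2c at 0.49. The lowest were Nfatc2 (−0.42) and the CREB coactivator Crtc3 (−0.55). In macrophages 0 of 19 passed 2-fold, against 3.31% of all genes, with Crem again highest (31.5 and 63.4 CPM, 0.90), Srf next (0.11), and Nfatc2 (−0.51) and Mef2c (−0.73) lowest. Crem was at least 2-fold higher in 9 of the 15 classes. In mature DCs, where 8.15% of all genes were at least 2-fold higher, 2 of 18 were, Srf (1 and 6 UMIs, 1.40) and Camk4 (1 and 5 UMIs, 1.20), at very low counts, and Crem was at 0.91.

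Receptors' partners and co-regulators, such as the RXR partners and co-repressor proteins, showed 0 of 12 genes at least 2-fold higher in either class, against 1.77% of all genes in CD8-gated T cells and 3.31% in macrophages. In CD8-gated T cells Hdac3 (0.32) and Ncoa1 (0.26) were highest and Rcor1 (−0.22) and Kdm1a (−0.33) lowest by log2 ratio. In macrophages Rxra (0.18) and Hdac7 (0.15) were highest and Rcor1 (−0.30) and Ncor1 (−0.30) lowest. Other nuclear receptors showed 0 of 14 in CD8-gated T cells, where Rora (0.73) and Nr1h3 (0.40) were highest, Thra (−0.87) and Rarg (−0.99) were lowest and the median was −0.29. They showed 1 of 17 in macrophages, near the 3.31% of all genes, the liver X receptor Nr1h3 (78.5 and 162 CPM, 1.00), followed by Thrb (0.59), with Nr2c2 (−0.28) and Nr2c1 (−0.42) lowest.

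Other immediate early genes differed more in macrophages than in CD8-gated T cells. In CD8-gated T cells 3 of 15 were at least 2-fold higher, against 1.77% of all genes (median log2 ratio 0.45): Fosb (24.9 and 77.5 CPM, 1.46), Junb (1.34) and Atf3 (1.12). Egr1 was at 0.67 and Fos at 0.45, and Myc (−0.35) and Egr2 (−0.40) were lowest. In CD8-gated T cells the log2 ratio of each NR4A gene thus exceeded that of the highest of these genes. In macrophages 9 of 15 were at least 2-fold higher, against 3.31% of all genes (median 1.33), led by Fosb (105 and 569 CPM, 2.39) and the phosphatase gene Dusp1 (501 and 2287 CPM, 2.18), with Jun (0.29) and Myc (0.09) lowest. There Nr4a1 (2.56) lay just above Fosb, whereas Nr4a2 (1.26) and Nr4a3 (1.99) lay among them. In other classes the order went both ways. The highest of these genes exceeded Nr4a1 in CAFs (Fosb 4.21 against 3.17) and in tumor and biliary epithelial cells (Atf3 3.31 against 2.69). It also did in endothelial cells (Atf3 3.13 against 1.70) and Kupffer cells (Atf3 2.59 against 1.68). It lay below Nr4a1 in NK lineage cells (Fosb 2.19 against 3.23) and B cells (Atf3 1.76 against 3.04).

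Heat shock genes, which warm enzymatic digestion of tissue can induce together with immediate early genes, were 0 of 11 at least 2-fold higher in CD8-gated T cells, against 1.77% of all genes (median 0.22), with Hspa1a at 0.82, Hspa1b at 0.74, Hsp90ab1 at −0.01 and Hspb1 at −0.07. In macrophages 3 of 11 were, against 3.31% of all genes (median 0.77), with Hspa1a at 213 and 898 CPM (2.05), Hspa1b at 2.03, Hsp90ab1 at 0.21 and Hspd1 at 0.01. The study describes 1 digestion protocol for both groups, and the sources used here do not say whether the libraries were prepared together. In CD8-gated T cells with no Hspa1a or Hspa1b UMI the log2 ratios were 2.54 for Nr4a1, 2.03 for Nr4a2 and 2.89 for Nr4a3. In such macrophages they were 2.98, 1.47 and 2.30 in the same order, and over the classes 35 of 39 combinations with a value were at least 2-fold higher. The part of handling in the NR4A differences was not tested.

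A further list held T cell genes that are known to lie downstream of NFAT and NR4A, with no direction of regulation set. It is a description, as the genes were chosen with earlier results known. In CD8-gated T cells 5 of 13 were at least 2-fold higher, against 1.77% of all genes (median 0.89). They were the cytokine gene Ifng (54.9 and 287 CPM, 2.28), the costimulatory receptor genes Tnfrsf4 (1.77) and Tnfrsf9 (1.40), the inhibitory receptor gene Ctla4 (99.4 and 340 CPM, 1.72) and Cd200 (1.25). Pdcd1 (0.93), Lag3 (0.89) and Tox2 (0.88) came next, and Tox (0.07), Ikzf2 (0.01) and Entpd1 (−0.24) were lowest. The activation gene Ifng and several receptor genes were thus on the higher side, while Tox, a regulator of the exhausted state, differed by less than its counting interval (−0.07 to 0.21). In macrophages 0 of 5 measured genes of this list were at least 2-fold higher, against 3.31% of all genes, with Ctla4 (0.88) and Entpd1 (0.23) highest and Ikzf2 (−0.05) and Havcr2 (−0.44) lowest. Ctla4 was at least 2-fold higher in 11 of the 15 classes, among them plasma cells (49.1 and 153 CPM, 1.55), neutrophils (3.93 and 30.6 CPM, 1.99) and monocytes (1.79 and 23.5 CPM, 2.07). Of all genes, between 1.55% and 8.15% were, depending on the class. Whether the Ctla4 UMIs outside T cells came from free RNA was not tested.

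Across the 20 class sums of both libraries (10 classes with at least 100 cells in each), the genes whose levels were most like those of Nr4a1 were Kdm6b (Pearson r of log2 CPM 0.90), Ccnl1 (0.90), Csrnp1 (0.90), Per1 (0.90) and Ifrd1 (0.89), of 11315 genes ranked. For Nr4a2 they were Bhlhe40 (0.87), Ube2j2 (0.87), Nr4a3 (0.86), Dusp5 (0.86) and Ptger4 (0.86). For Nr4a3 they were Dusp5 (0.91), Maff (0.91), Spty2d1 (0.89), Nr4a2 (0.86) and Bhlhe40 (0.83). Nr4a2 and Nr4a3 were thus more like each other than like Nr4a1, whose r was 0.68 with Nr4a2 and 0.73 with Nr4a3. Points of 1 library share its depth and its treatment, so these values mix the library difference with the pattern over classes. Over the 10 classes of the anti–PD-1 library alone, r was 0.87 between Nr4a2 and Nr4a3, 0.56 between Nr4a1 and Nr4a2 and 0.53 between Nr4a1 and Nr4a3. Over those of the PBS library alone the values were lower, at 0.67, 0.39 and 0.15, and the 5 genes named for Nr4a1 were not among its 5 nearest within either library.

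The libraries differed in their Xist- and Y-marked cells, so the members were also read by marked cells. Within the PBS library, T cells marked by Xist (1342 cells) had Nr4a1 at 77.6 CPM (70.3 to 85.5), Nr4a2 at 51.9 and Nr4a3 at 23.1. Y-marked T cells of the same library (345 cells) had 97.2 CPM (79.8 to 117), 35.1 and 21.6, and Y-marked T cells of the anti–PD-1 library (1962 cells) had 458 CPM, 291 and 173. Both PBS groups of T cells therefore lay far below the anti–PD-1 cells. In Xist-marked and Y-marked PBS cells and in Y-marked anti–PD-1 cells, Nr4a1 was at 152, 103 and 1354 CPM in NK lineage cells, 108, 125 and 722 CPM in macrophages, and 115, 100.0 and 877 CPM in B cells. In macrophages the Y-marked PBS cells were above the Xist-marked ones (114 to 137 against 104 to 113 CPM). The same held with a wider gap for Nr4a1 in neutrophils (402 against 227 CPM), monocytes (445 against 232 CPM) and cDC2 (445 against 223 CPM), and in CAFs the Y-marked cells were lower (7.14 against 45.9 CPM, 2 and 63 UMIs). In neutrophils, monocytes and cDC2 the Y-marked anti–PD-1 cells were at 1103, 1197 and 1304 CPM, so the log2 ratio of Nr4a1 in Y-marked cells was 1.44, 1.42 and 1.54, lower than over all cells of these classes. In Y-marked CD8-gated T cells (77 PBS cells) Nr4a2 had 4 UMIs, 14.4 CPM (3.92 to 36.8), against 84.1 CPM in Xist-marked cells (410 cells), and the log2 ratio in Y-marked cells was 4.32. In Y-marked cells, 30 of the 33 combinations with a value were at least 2-fold higher, and 33 of 33 lay above 0. Treatment and any difference between the animals behind the libraries cannot be told apart.

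**Figure D5:**
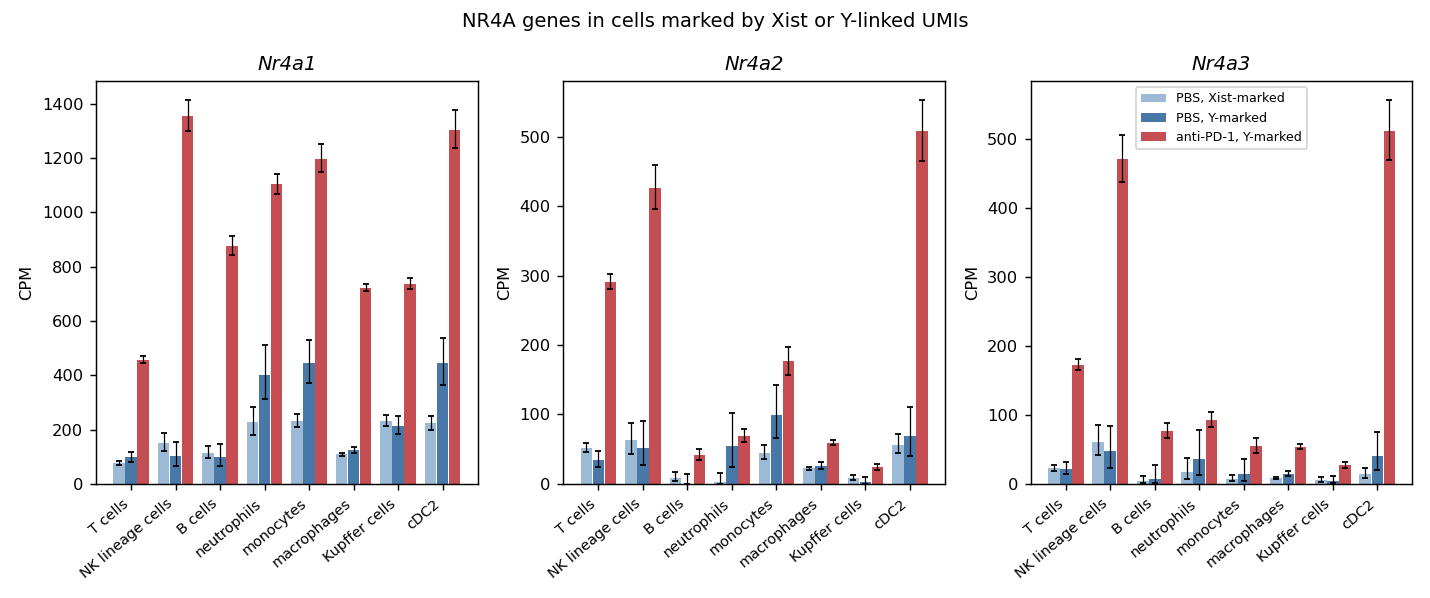
Level of each NR4A gene (CPM) in 8 classes for PBS cells marked by Xist (light blue), PBS cells marked by Y-linked UMIs (blue) and anti–PD-1 cells marked by Y-linked UMIs (red), with 95% Poisson intervals. Both blue bars lie below the red bar in each class shown, and the Y-marked PBS bar of Nr4a1 is the higher of the blue ones in neutrophils, monocytes, macrophages and cDC2, with intervals apart.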

How the data were processed

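Tumor-bearing livers were digested and 2 GEXSCOPE V2 libraries, 1 per group, were sequenced. The deposited values are UMI counts per gene and cell, which the authors made with Singleron's software on mm10; version, annotation and strand are not given in the sources used here, and Seurat 4.3 is named in the submitters' processing notes. The features and barcodes files hold names. From the counts, cells with 500 to 5000 genes and at most 10% mitochondrial UMIs were kept. Each cell was scored on the markers of 18 classes and assigned at a mean score of at least 0.2, with 2 markers detected and a lead of 0.1. No lead was required between macrophages and Kupffer cells or between macrophages and monocytes, where the higher score decided. Counts were summed per class and library. Only genes with a mean of at least 5 CPM were tested for a 2-fold difference. Intervals are exact (Poisson, and Clopper-Pearson for shares) at 95% and cover counting error only. Doublets were scored against simulated pairs, and the top 8% per library left out as an alternative. Ratios, intervals and thinning were tested on simulated data. The members and gene lists were chosen with earlier results of these data known, and the scoring rule of the gate after the data were seen. Besides the members, the 2 highest and 2 lowest genes of each list were named in CD8-gated T cells and macrophages. Genes passing 2-fold were all named in CD8-gated T cells but not all in macrophages. Egr1, Fos, Pdcd1, Lag3, Tox2 and Tox were picked after their values were seen. Tools were Python 3.11.15, numpy 2.4.6, pandas 2.3.3, scipy 1.17.1, scikit-learn 1.9.0 and matplotlib 3.10.9. Integration and SCTransform of the study were not repeated. A gene of the partner list and a T cell split that used a further gene are not reported here, and the split of CD8-gated T cells by Pdcd1 was added after the data were seen.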

Additional observations from a re-analysis of the deposited data

How the results depend on the processing

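No paired analysis was possible because each group is 1 library, and leaving out a replicate was likewise not possible. The 48 log2 ratios (3 members in CD8-gated T cells and 15 classes) gave 533 values under other settings, of which 404 stayed within the 95% counting interval of the reported value, 129 moved outside it and 0 changed direction. With plasma-cell UMIs taken off, a ratio was formed only where both libraries lay above plasma cells. A fall below them could therefore not count as a change of direction. Endothelial Nr4a2, for example, was above plasma cells in the PBS library (0.0615 against 0.0424 UMIs per cell). In the anti–PD-1 library it was below them (0.153 against 0.178), so it had no value. In CD8-gated T cells Nr4a1 was at 1.96 in Y-marked cells, 2.90 after thinning to 1000 UMIs and 5.61 when the UMIs per cell of the plasma cells were taken off, an alternative added after seeing the data. That value of 5.61 is set largely by the added 5 CPM, as almost no PBS level was left. Nr4a2 was at 4.32 in Y-marked cells, 1.73 in cells with 2000 to 4000 UMIs and 1.59 after thinning, and Nr4a3 stayed between 2.69 and 3.29. The count of combinations at least 2-fold higher was 42 as reported and between 30 and 44 under most alternatives. It was 27 of 30 with a value in cells with 2000 to 4000 UMIs, and 26 of 29 with plasma-cell UMIs taken off, where fewer combinations had a value. Low counts limit endothelial cells, CAFs, pDC, mature DCs and plasma cells most: endothelial Nr4a3 was at 0 in cells with 2000 to 4000 UMIs. Shares of cells with a UMI moved with depth, as thinning itself implies.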
